A study of Mus musculus with 4 samples.

Results

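The genes described here are the coreceptors Cd4, Cd8a and Cd8b1 and the factors of the choice between the CD4 and CD8 lineages, Gata3, Zbtb7b, Runx3, Runx1 and Cbfb. A member was every probe set whose only gene name in the annotation of the array platform was 1 of these 8 genes. The rule found 18 of the 45037 probe sets on the array, and all 8 genes had at least 1. The study compared sorted CD4+CD8+ double-positive thymocytes, the immature thymic T cells that carry both coreceptors, between genotypes. All mice were of strain C57BL/6 and received no treatment. The wild-type group had 2 arrays (replicates 1 and 2). The other 2 arrays (also replicates 1 and 2) were labelled hCD2-iCre x Gfi1fl/fl, called the knockout label here: a Cre recombinase under the human CD2 promoter, which is active in lymphoid cells, together with a loxP-flanked gene for Gfi1, a zinc-finger transcriptional repressor. The labels do not give the wild-type mice the recombinase, so its own effect cannot be told apart from that of the floxed gene. Nor do they tie replicates to separate mice, so every p-value here reflects the spread of these arrays alone, which may be technical. Ages are not stated.

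CD4 and CD8 bind MHC class II and class I molecules and bring the kinase Lck to the T cell receptor. CD8 on these cells is a dimer of an alpha and a beta chain, encoded by the neighbouring genes Cd8a and Cd8b1. After positive selection a thymocyte keeps 1 coreceptor. GATA3 promotes the CD4 fate and acts upstream of ThPOK, the zinc-finger factor encoded by Zbtb7b that holds cells in that fate. RUNX3 promotes the CD8 fate and silences Cd4, RUNX1 represses Cd4 at earlier stages, and both bind DNA together with their shared non-DNA-binding partner CBF-beta.

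RUNX proteins bind TGTGGT, which reads ACCACA on the opposite strand, and Runx genes have an upstream and a downstream promoter. The probe sets with the largest differences described below belong to Runx3 and Runx1, so promoter sequences of these genes are shown for orientation. Of the RefSeq table of promoters (GRCm38.p6, 250 bases before to 50 after an annotated start), 9 windows belonged to Gata3, Zbtb7b, Runx3, Cd8a, Cbfb and Runx1. Cd4 and Cd8b1 had no entry. TGTGGT on either strand was present in 3 of the 9, against 16.8% of all 32851 promoters. The upstream promoters of Runx3 and Runx1 each held 2 copies, and 1 window of Zbtb7b held 1. In both Runx promoters the copies lay 2 letters apart, as ACCACANNACCACA, an arrangement present in 7 of the 32851 promoters (0.0213%). The arrangement and the run below were taken from these Runx promoters, which are counted among the matches. Their rarity is therefore descriptive only. Both genes, and Runx2, shared an unbroken run of 18 letters around the pair. The only other promoter with that run, of Gm16225, covers the same bases as that of Runx3 and is read the other way. The run is shown with its flanks, with both ACCACA copies in capitals, for Runx3 (chr4:135120503-135120532, plus strand), Runx1 (chr16:92826025-92826054, minus strand) and Runx2 (chr17:44814583-44814612, minus strand), all GRCm38.p6.
Runx3: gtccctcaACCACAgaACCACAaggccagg
Runx1: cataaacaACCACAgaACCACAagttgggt
Runx2: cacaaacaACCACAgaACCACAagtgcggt
In Runx3 the run began 136 bases before the annotated start, and in Runx1 and Runx2 it began at bases 27 and 22 after it. The 250 bases before the Runx3 start (chr4:135120395-135120644, plus strand, GRCm38.p6) are given to show where the pair sits, again with ACCACA in capitals.
Runx3 upstream: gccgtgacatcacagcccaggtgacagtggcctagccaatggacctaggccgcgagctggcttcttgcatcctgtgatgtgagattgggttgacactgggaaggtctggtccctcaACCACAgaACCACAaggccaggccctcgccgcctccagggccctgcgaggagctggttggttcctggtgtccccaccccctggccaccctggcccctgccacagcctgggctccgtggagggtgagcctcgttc
A match of letters is a description of the sequence. No source used here ties a probe set to transcripts of a given promoter.

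Values are log2 RMA signals, on which a step of 1 is a doubling of signal. They compare arrays within a probe set and do not rank genes against each other. The array medians were 3.53 to 3.55, and signals near or below them cannot be told from background here, as no detection calls were used. Gfi1 itself gave 10.17 and 10.08 on the wild-type arrays and 11.47 and 11.32 under the knockout label, so its 1 named probe set was higher, not lower, there (limma, adjusted p = 0.00781). Whether that probe set lies in the floxed part is not known here, and outside it the signal checks nothing. Directions below are therefore those between labels. Defining genes of the double-positive stage were bright on all arrays: Rag1, which encodes a recombinase subunit, gave 12.54 and 12.66 on the wild-type arrays and 12.54 and 12.55 under the knockout label, and Rag2 lay between 11.27 and 11.37 on all 4. Cell cycle genes set the 2 arrays of the knockout label apart, with a mean over 19 genes of 8.15 on knockout replicate 1 and 9.96 on replicate 2, against 8.91 and 9.48 on the wild-type arrays; none of the 19 was called, the largest differences being -0.49 for Aurka and -0.32 for Ccna2. With knockout replicate 2 left out, 10 of them were called lower, and with knockout replicate 1 left out, 2 were called higher.

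None of the 18 probe sets passed the test between the labels (limma, Benjamini-Hochberg adjusted p of 0.05 over all 45037 probe sets), where 0.766% of all probe sets passed, 0.664% higher and 0.102% lower under the knockout label. At an unadjusted p of 0.05, 3 of the 18 passed by limma and 4 by an ordinary t statistic, against 7.64% and 6.84% of all probe sets. The groups did not overlap for 7 of the 18, 5 higher and 2 lower under the knockout label. Over the table the groups did not overlap for 34.7% of probe sets (16.8% higher and 17.9% lower), so this count is near the background. The median difference of the 18 was 0.02, beside -0.01 for all probe sets. The largest differences were those of 1 Runx3 probe set (1.28), 1 Runx1 probe set (0.58) and Gata3 (0.56).

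**Figure D1:**
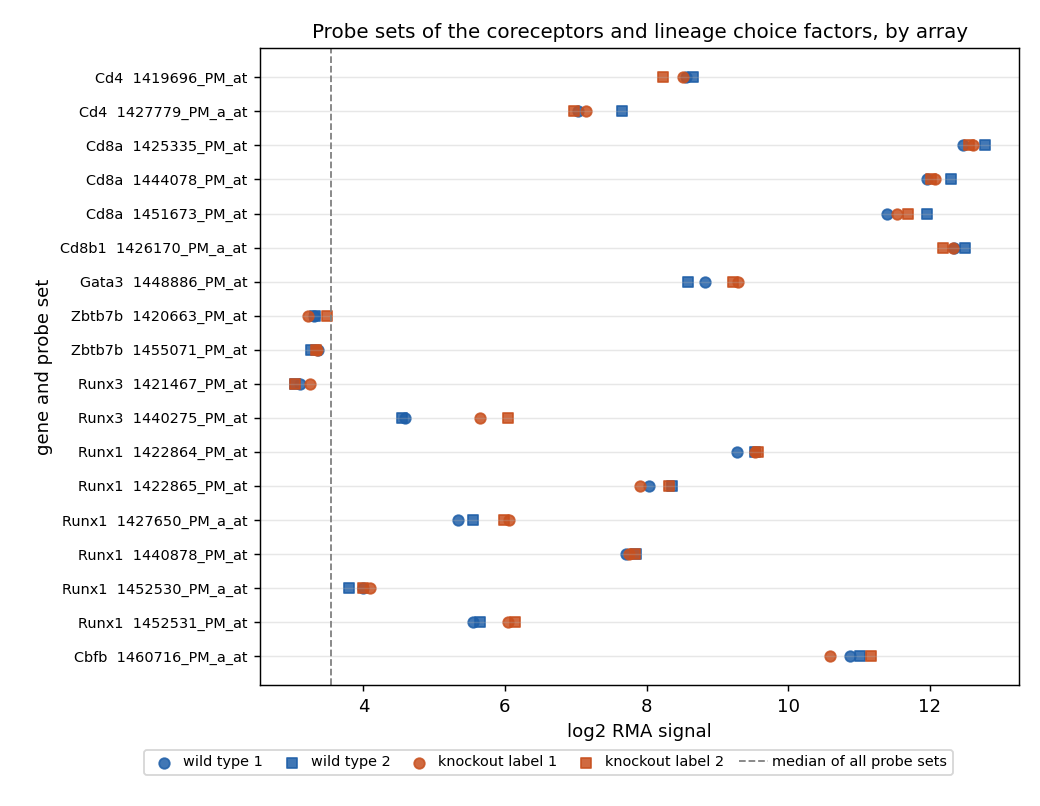
Signals of the 18 probe sets on each array. The x axis is the log2 RMA signal, each row is a probe set, circles and squares are replicates 1 and 2, and the dashed line is the median of all probe sets. The second Runx3 row shows a gap between the labels, from 4.59 to 5.64, while the Cd4, Cd8a and Cd8b1 rows are mixed or nearly touch.

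The coreceptor genes showed small differences between the labels, none of which passed. The cells were sorted as carrying both coreceptor proteins, so the groups were made alike in this by the gate. These values therefore do not show that the label leaves coreceptor expression unchanged. The first Cd4 probe set (1419696_PM_at) gave 8.56 and 8.66 on the wild-type arrays and 8.51 and 8.24 under the knockout label. The groups were separated by 0.05 only, and the difference of -0.23 ± 0.21 (SE) did not pass the test (limma, adjusted p = 0.932). The other Cd4 probe set (1427779_PM_a_at), whose suffix marks one that reads several transcripts of the gene, gave 7.03 and 7.66 against 7.14 and 6.98. Here the groups overlapped, with a difference of -0.28 ± 0.29 (SE; limma, adjusted p = 0.950).

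Cd8a, the alpha chain gene, had 3 probe sets. The brightest (1425335_PM_at) gave 12.48 and 12.78 on the wild-type arrays and 12.61 and 12.56 under the knockout label, so both knockout values lay between the wild-type ones. Its difference was -0.04 ± 0.11 (SE), with a 95% interval of -0.31 to 0.22 (limma, adjusted p = 1). The others differed by -0.09 ± 0.12 (1444078_PM_at; 11.97 and 12.30 against 12.07 and 12.01) and by -0.06 ± 0.19 (1451673_PM_at; 11.39 and 11.96 against 11.54 and 11.69), and their groups overlapped as well. Cd8b1, the beta chain gene, gave 12.34 and 12.50 against 12.33 and 12.18. Its groups missed each other by 0.01, and the difference was -0.17 ± 0.10 (SE; limma, adjusted p = 0.828).

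Of the 4 arrays, wild-type replicate 2 had the highest signal for all 6 coreceptor probe sets. Without it the differences of 1 Cd4 and all 3 Cd8a probe sets turned from below 0 to between 0.04 and 0.22, so no direction is given for these. The unadjusted 95% intervals of the 6 differences ran from -0.95 to 0.40 at their widest. All 6 lay above a halving of signal, but the lowest limit, for a Cd4 probe set, came near it.

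**Figure D2:**
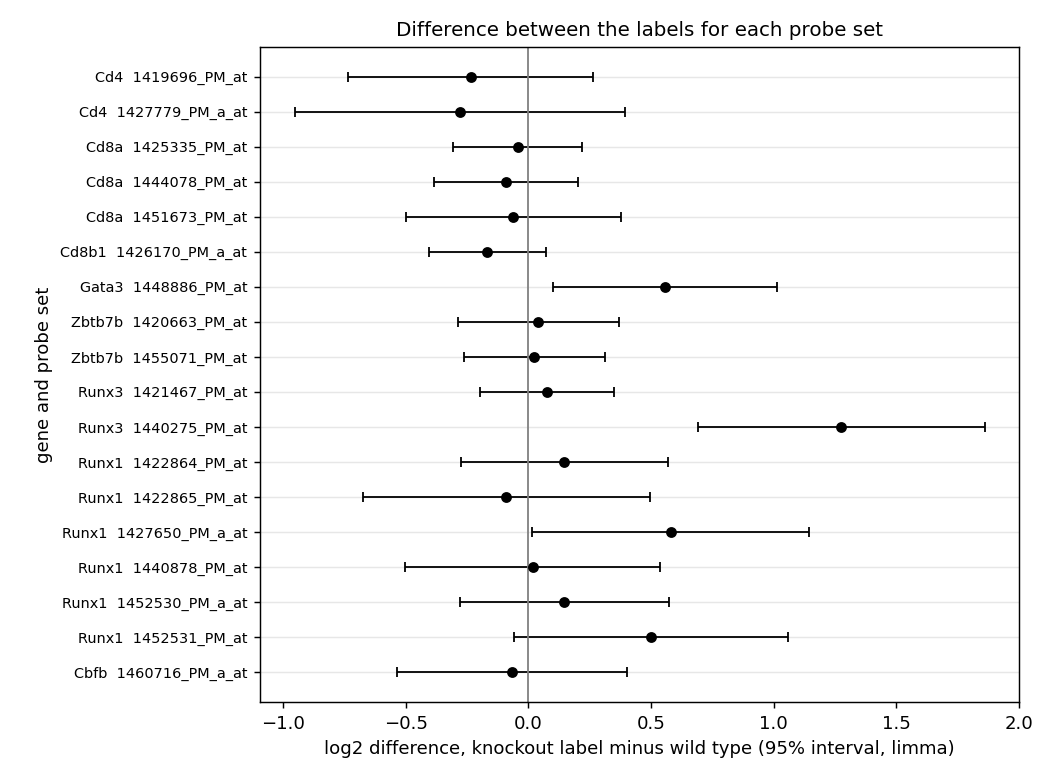
Differences of the 18 probe sets. The x axis is the log2 difference, knockout label minus wild type; points are estimates from 2 arrays per label and bars are unadjusted 95% intervals from limma. The intervals of Gata3, of Runx3 1440275_PM_at and of Runx1 1427650_PM_a_at lie above 0, and none of the 18 passed after adjustment over the table.

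Gata3, the early factor of the CD4 lineage, had 1 probe set (1448886_PM_at). It gave 8.82 and 8.59 on the wild-type arrays and 9.30 and 9.23 under the knockout label. Both knockout values exceeded both wild-type values by at least 0.41. The difference of 0.56 ± 0.19 (SE), a signal ratio of 1.47, had an unadjusted p of 0.0232 and did not pass over the table (limma, adjusted p = 0.496). It ran from 0.44 to 0.67 when each array was left out. Its sign could not change there, because the groups did not overlap.

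Zbtb7b, which encodes ThPOK, lay below the median of every array with both probe sets. The first (1420663_PM_at) gave 3.30 and 3.32 on the wild-type arrays and 3.21 and 3.48 under the knockout label, and the second (1455071_PM_at) 3.36 and 3.26 against 3.34 and 3.33. The groups overlapped for both, with differences of 0.04 ± 0.14 and 0.03 ± 0.12 (SE; limma, adjusted p = 1 for each). At so low a signal a fall was not detectable, and the values show only that neither label brought Zbtb7b above the median of the arrays.

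Runx3, the factor of the CD8 lineage, gave different pictures with its 2 probe sets. The one at 1440275_PM_at gave 4.59 and 4.54 on the wild-type arrays and 5.64 and 6.04 under the knockout label. The lowest knockout value stood 1.05 above the highest wild-type value, a wider gap than for any other of the 18. The difference was 1.28 ± 0.25 (SE), a signal ratio of 2.42, with a 95% interval of 0.69 to 1.86. It ranked 532nd by p among the 45037 probe sets (unadjusted p = 0.00129) and did not pass (limma, adjusted p = 0.109). The other Runx3 probe set (1421467_PM_at) lay below the median of every array, at 3.10 and 3.03 against 3.25 and 3.04. Its groups overlapped, with a difference of 0.08 ± 0.12 (SE; limma, adjusted p = 0.994), and a signal there was not detectable under either label.

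When each of 17097 genes was represented by its brightest probe set, none of the 8 genes passed either, against 1.11% of all genes (limma, adjusted p = 0.0880 for Runx3 and 0.405 for Gata3; unadjusted, both were under 0.05, as were 8.29% of all genes). For Runx3 this adjusted p depended on the arrays: it was 0.0133 without knockout replicate 1, 0.0965 without knockout replicate 2, and 0.348 and 0.347 without wild-type replicates 1 and 2, and over all alternatives it ran from 0.0133 to 0.621. With the mean of both Runx3 probe sets in place of the brighter one the difference was 0.68 (limma, adjusted p = 0.138). That of the brighter one was 1.47 with knockout replicate 1 left out and 1.08 with knockout replicate 2 left out.

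Runx1, whose product represses Cd4 at stages before the double-positive one, had 6 probe sets, and they fell into different patterns. The brightest (1422864_PM_at) gave 9.28 and 9.53 on the wild-type arrays and 9.53 and 9.57 under the knockout label, a difference of 0.15 ± 0.18 (SE). The groups nearly touched, at 0.003 apart. The next 2 differed by no more than 0.09 in either direction: 1422865_PM_at gave 8.04 and 8.36 against 7.91 and 8.31, and 1440878_PM_at gave 7.71 and 7.84 against 7.75 and 7.84. The groups overlapped for both.

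A pair of dimmer Runx1 probe sets was higher on both arrays of the knockout label. Probe set 1427650_PM_a_at gave 5.34 and 5.54 against 6.06 and 5.99, a difference of 0.58 ± 0.24 (SE), and 1452531_PM_at gave 5.54 and 5.65 against 6.05 and 6.15, a difference of 0.50 ± 0.24 (SE). Their groups were 0.44 and 0.39 apart. Neither passed (limma, adjusted p = 0.627 and 0.719). With each array left out the differences ran from 0.44 to 0.68. Their direction was bound to hold there, because the groups did not overlap. The sixth, 1452530_PM_a_at, gave 4.001 and 3.80 against 4.09 and 4.001, and its groups met at 1 value. Whether the Runx1 probe sets differ from each other in their response was not tested.

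Cbfb, the partner of both RUNX proteins, gave 10.88 and 11.01 on the wild-type arrays and 10.59 and 11.17 under the knockout label (1460716_PM_a_at). The knockout arrays held the lowest and the highest of the 4 values, so the groups overlapped, and the difference was -0.07 ± 0.20 (SE; limma, adjusted p = 1). The 4 arrays had the same order for Cbfb as for the mean of the cell cycle genes, whose part in these values was not tested. Leaving out knockout replicate 1 gave 0.22, and leaving out knockout replicate 2 gave -0.35.

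**Figure D3:**
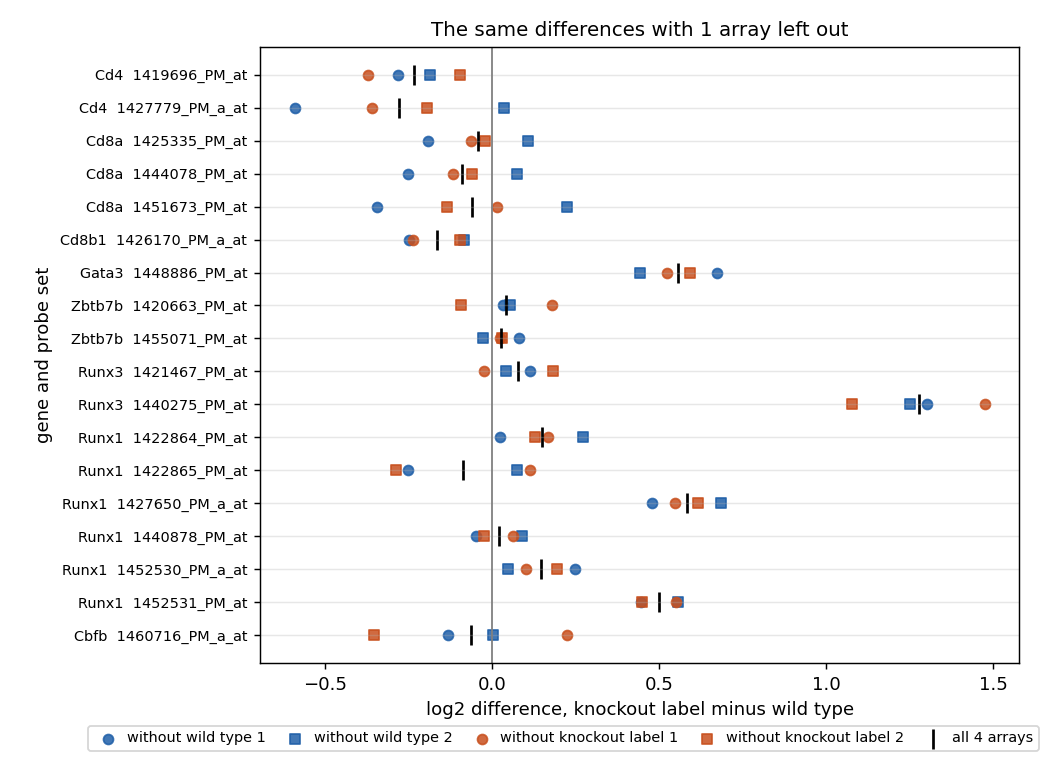
The same differences recomputed with 1 array left out. The x axis is the log2 difference, knockout label minus wild type; black ticks use all 4 arrays, blue marks leave out a wild-type array and orange marks leave out an array of the knockout label. Of the 18 probe sets, 10 crossed 0 at least once. Gata3, Runx3 1440275_PM_at and 2 Runx1 probe sets had differences of at least 0.44. As their groups do not overlap, they could not cross 0.

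Among the genes known to act on the same loci, few stood out. The 14 measured regulators of Cd4, Cd8 and Zbtb7b, among them the E proteins and the chromatin organiser Satb1, included no called gene, and their median difference was -0.03, beside -0.02 for all genes. The largest differences were -0.35 for Tcf3, an E protein gene, and -0.27 for Lef1, a high-mobility-group factor gene (limma, adjusted p = 0.787 and 0.856). The list of RUNX family and corepressor genes held 9 measured genes, none of them encoding a RUNX protein, and none was called (median -0.04). Tle1, a Groucho-type corepressor gene, gave 6.47 and 5.75 on the wild-type arrays and 7.58 and 7.41 under the knockout label, a difference of 1.39 ± 0.30 (SE; limma, adjusted p = 0.123). Its relative Tle4 differed by 0.77 ± 0.22 (SE; limma, adjusted p = 0.263), while Tle3 differed by -0.04. The other members lay between -0.36 and 0.15. Of the alternatives run, Tle1 was called in the fit without knockout replicate 2 alone (limma, adjusted p = 0.0223). Tox, Tcf7 and Runx2 are not analysed here.

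Cytokine receptors and their signal transducers promote the CD8 fate after selection. None of the 14 measured genes of that list was called, and their median difference was -0.06. Il4ra, the interleukin-4 receptor alpha chain, gave 6.78 and 5.74 on the wild-type arrays and 5.43 and 4.49 under the knockout label, and Il15ra, the interleukin-15 receptor alpha chain, 4.29 and 3.95 against 5.53 and 4.70. Their differences of -1.30 ± 0.44 and 1.00 ± 0.32 (SE) did not pass (limma, adjusted p = 0.420 and 0.354). Without knockout replicate 1, the differences were -1.77 for Il4ra and 0.79 for Il2rb, a receptor chain shared by interleukins 2 and 15. Il2rb gave 3.19 and 3.14 on the wild-type arrays and 3.45 and 3.96 under the knockout label. Only the last of these lay above the median of its array. Il15ra differed by 1.42 without knockout replicate 2. The 13 measured partners of the coreceptors and the T cell receptor, such as Cd3e and Zap70, also held no called gene (median -0.10). The largest difference after that of the phosphatase gene Ptpn22 (-0.88) was -0.46 ± 0.14 (SE) for Themis, a selection signalling gene (limma, adjusted p = 0.327). Without knockout replicate 1, Ptpn22 was called (limma, adjusted p = 0.0231). Lck and Il7r are not analysed here.

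Some genes on the helper and cytotoxic lineage lists passed the test. Lgals1 and Gzma, described below, were bright on the wild-type arrays too (11.36 and 11.04 for Lgals1, 9.90 and 9.67 for Gzma). A call on a list therefore does not by itself mark cells of that lineage. Of 10 measured helper lineage genes 3 rose, none fell and 7 did not pass, with a median difference of 0.28. Over all genes 0.942% rose and 0.170% fell. The lists were chosen with earlier results of these data known. Counts called on this list and those below are therefore not independent of these arrays, and the comparison with all genes is descriptive only. Il6ra, the interleukin-6 receptor alpha chain, gave 3.26 and 3.56 on the wild-type arrays and 7.72 and 7.46 under the knockout label, a rise in signal of at least 16.5-fold (limma, adjusted p = 0.000906). Folds given as bounds have any wild-type signal under its array's median set to that median. Ctla4, an inhibitory receptor gene, gave 2.99 and 3.56 against 7.56 and 6.71 and rose at least 11.9-fold (limma, adjusted p = 0.00395). Lgals1, which encodes the lectin galectin-1, rose 2.01-fold (limma, adjusted p = 0.0219), a call lost without wild-type replicate 2 and without the intensity trend (adjusted p = 0.0871 and 0.106). Cd40lg, the CD40 ligand gene and a defining product of helper cells, gave 3.44 and 3.34 against 3.32 and 3.41, below the array medians throughout.

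Of 16 measured cytotoxic lineage and RUNX3-linked genes 2 rose, none fell and 14 did not pass, with a median difference of 0.18. Cd7, an immunoglobulin superfamily receptor of T and NK cells, gave 3.22 and 3.04 on the wild-type arrays and 7.28 and 6.95 under the knockout label, a rise of at least 11.9-fold (limma, adjusted p = 0.000906). Gzma, the granzyme A gene, rose 3.14-fold, from 9.90 and 9.67 to 11.33 and 11.55 (limma, adjusted p = 0.00442). Differences lay above 0 for 13 of the 16, where the median of all genes was -0.02, but 10 of the 16 had means below the array median. Itgae, the integrin alpha E gene that RUNX3 activates in CD8 cells, gave 3.37 and 3.52 against 3.68 and 3.94 (limma, adjusted p = 0.611), and Prf1, the perforin gene, 4.04 and 3.73 against 5.38 and 4.41 (limma, adjusted p = 0.388). The groups did not overlap for either, which also held for 34.7% of all probe sets, so this does not set the 2 genes apart. Without knockout replicate 2, the differences were 1.497 for Prf1 and 0.566 for Nkg7, which encodes a cytotoxic granule protein. Nkg7 gave 2.95 and 2.77 on the wild-type arrays and 3.43 and 4.28 under the knockout label. Only the last of these lay above the median of its array. The Nkg7 difference without knockout replicate 2 therefore lies between signals that cannot be told from background. With knockout replicate 1 left out, the difference of Nkg7 was 1.42. Cd40lg, Itgae, Prf1, Il2rb, Tle3 and, below, S1pr1, Ms4a4b and Cd52 were chosen after their values were seen.

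**Figure D4:**
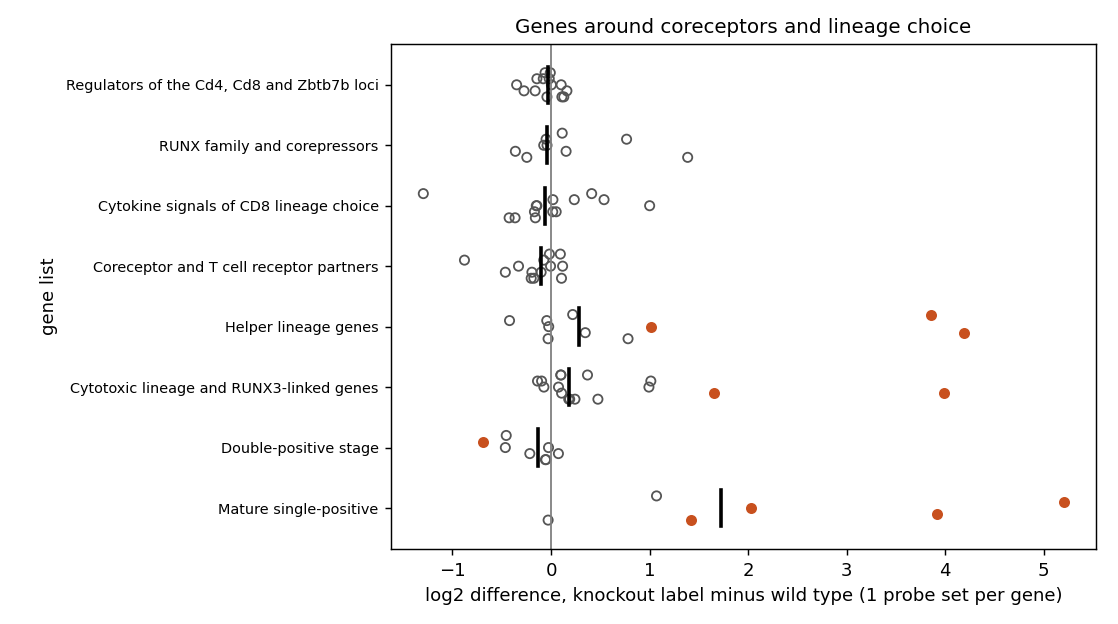
Differences of genes around the coreceptors and lineage choice. The x axis is the log2 difference, knockout label minus wild type, by the brightest probe set of each gene; filled circles passed limma at an adjusted p of 0.05, open circles did not, and black bars are list medians. Filled circles appear in 4 of the 8 lists: 3 helper genes, 2 cytotoxic genes, 4 mature single-positive genes and, below 0, 1 double-positive gene.

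Most markers of mature single-positive thymocytes, which a double-positive gate could hold, moved with these genes. Of 6 measured, 4 rose (Klf2, Gimap4, H2-K1 and S1pr1), none fell and 2 did not pass. The suffixes of the Gimap4 (s) and H2-K1 (x) probe sets mark ones that can read other genes too. The S1pr1 call was lost with a replicate block, without the intensity trend and without wild-type replicate 1 or 2. Ms4a4b, a gene of mature T cells, differed by 1.07 (limma, adjusted p = 0.0528) and was called with arrays centred on their medians, a second quantile normalization, either dim filter, a robust prior, and without either knockout array (adjusted p between 0.0177 and 0.0473). The summed signal of the list was 4763 to 5881 on the wild-type arrays and 8062 to 9105 under the knockout label. Cd52, a surface glycoprotein gene and the brightest of the list, made up most of the wild-type sum and differed by -0.03 (limma, adjusted p = 1). Without it the sums were 784 to 920 against 3727 to 4538. Of 8 measured double-positive genes, Dntt fell and the others did not pass (Ptcra, the pre-T cell receptor alpha gene, differed by -0.45; limma, adjusted p = 0.895), and the summed signal was 22542 to 23667 against 19652 to 20620. Dntt, at 12.23 and 12.39 against 11.65 and 11.60, is among the brightest of these and weighs heavily in that sum. Rag1 and Rag2 differed by -0.05 and 0.08. Of the 8 differences 1 lay above 0, with a list median of -0.14. The call of Dntt, the terminal transferase gene, was lost without either wild-type array and without the intensity trend (limma, adjusted p between 0.123 and 0.266). Of 7 measured gamma-delta, NK and innate lymphoid markers none was called and 5 had means below the array median, with sums of 66.1 to 67.8 against 75.2 to 89.0. The largest differences there were 0.99 for Nkg7 and 0.47 for Rora, an innate lymphoid factor gene (limma, adjusted p = 0.214 and 0.506), and Klrb1c, an NK receptor gene, reached at most 3.50 on any array. Without Rora, the brightest of this list, the sums were 53.1 to 53.6 against 57.6 to 68.8. The part of such cells in the values of Runx3, Gata3 and the lineage genes was not tested, and in bulk samples more cells of a type and more RNA per cell cannot be told apart.

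Of 7 measured double-negative thymocyte markers only Cd44 was called. It was lower under the knockout label, and the summed signals were 161 to 173 against 77.7 to 84.8. Cd44 made up most of that sum: without it the other 6 summed to 58.7 to 61.0 against 65.6 to 72.9. Of the 7 differences 5 lay above 0, with a median of 0.19. No gene was called among 5 B cell, 7 myeloid and 6 thymic epithelial markers. Their summed signals were 268 to 341 against 112 to 204 for B cells, 74.3 to 84.3 against 79.3 to 91.6 for myeloid cells, and 120 to 176 against 257 to 447 for thymic epithelium. Single genes carried the B cell and epithelial sums. Without Cd79b the other 4 B cell markers summed to 31.7 to 34.2 against 33.9 to 34.1, and without Epcam the other 5 epithelial markers summed to 53.1 to 57.7 against 51.5 to 52.0. The list medians were 0.01 for B cells, 0.03 for myeloid cells and 0.0069 for epithelium. Among them Cd79b, a B cell receptor chain gene, and Ms4a1 differed by -1.23 and 0.19, Lyz2 and Itgam by 0.51 and -0.22, and Epcam and Krt8 by 1.68 and -0.30 (limma, adjusted p of at least 0.163). With 1 array left out, Cd79b was called without knockout replicate 1 (difference -1.79) and Epcam without knockout replicate 2 (2.15); Epcam was also called with the replicate block (limma, adjusted p = 0.0361). The means of 4 B cell, 6 myeloid and 4 epithelial markers lay below the array median.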

How the data were processed

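RNA of sorted thymocytes was hybridised to Affymetrix arrays, 1 array per sample, after 3' in vitro transcription labelling, per the labels' protocols. The submitters' processing notes name RMA and Affymetrix Expression Console 1.1; other settings are not stated in any source used here. By their range (2.19 to 13.52) the deposited numbers are log2 signals, and no further normalization was applied.

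Of 45037 probe sets, 28898 had exactly 1 name, 551 several and 15588 were not listed in the platform annotation. All probe sets were fitted with lmFit and eBayes (limma 3.58.1, R 4.3.3) with an intensity trend, no filter and no covariate, leaving 2 residual degrees of freedom before moderation; p-values are two-sided. Gene lists used the brightest probe set of each of 17097 genes; of 157 listed genes 138 were measured. Themis, Nkg7 and Klrd1 are on more than 1 list. Named genes are all members, up to 3 called genes per list or else its 2 largest differences, and set markers. The number of arrays limits the precision. The members and lists were chosen with earlier results of these data known. The fit was tested on simulated data (10 simulations, 200 changed probe sets). It recovered 20.2% of rises and 47.2% of falls of 1 on the log2 scale, and 84.6% and 87.2% of those of 2. Of the calls 4.56% were false. A doubling would thus usually be missed, and a probe set that was not called is not shown to be unchanged. Figures used matplotlib 3.10.9 in Python 3.11.15.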

Additional observations from a re-analysis of the deposited data

How the results depend on the processing

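No probe set of the 18 that was tested was called under any alternative (replicate block, arrays centred on their medians, quantile normalization repeated, dim filters of 30% and 50%, no trend, robust prior, ordinary t statistic, only probe sets with 1 name, each array left out). With the 50% filter 15 of the 18 were tested, as both Zbtb7b probe sets and Runx3 1421467_PM_at fell below it. Over all features, 345 probe sets and 190 genes were called. Without the intensity trend 205 probe sets were called. With an ordinary t statistic 1 probe set and 0 genes were called (3080 probe sets at an unadjusted p under 0.05). With each array left out the counts ran from 168 to 368 probe sets and from 103 to 475 genes, lower without a wild-type array and higher without a knockout-label array, where the spread comes from the other label alone. Member genes called ran from 0 to 1, the 1 being Runx3 without knockout replicate 1.

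The replicate numbers pair no animals or batches in the labels. Deviations of same-numbered arrays from their group means correlated at 0.30 over all probe sets. With the replicate block 272 probe sets and 183 genes were called, and adjusted p was 0.152 for Runx3 1440275_PM_at and 0.374 for Gata3 (limma).

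With 1 array left out, 10 uncalled differences changed sign: Cd4 1427779_PM_a_at ran from -0.59 to 0.036, Cd8a 1425335_PM_at from -0.19 to 0.11, Cd8a 1444078_PM_at from -0.25 to 0.074, Cd8a 1451673_PM_at from -0.35 to 0.22, Zbtb7b 1420663_PM_at from -0.10 to 0.18, Zbtb7b 1455071_PM_at from -0.028 to 0.079, Runx3 1421467_PM_at from -0.026 to 0.18, Runx1 1422865_PM_at from -0.29 to 0.11, Runx1 1440878_PM_at from -0.050 to 0.088 and Cbfb from -0.35 to 0.22. The cause was not tested. Low signals limit what Zbtb7b and Runx3 1421467_PM_at can show.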
